A study of Mus musculus with 6 samples.

Results

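Livers lacking Pdss2 in hepatocytes were examined for the genes of growth hormone, insulin-like growth factor (IGF) and insulin signaling. The 10 genes followed were Igf1, Igfals, Ghr, Igfbp1, Igfbp2, Igfbp3, Igfbp4, Insr, Irs1 and Irs2, of 18193 genes that the array reads by at least 1 probe set, a group of short probes that together report 1 transcript. Every probe set annotated to exactly 1 of these symbols was taken, 23 in all, of 34945 with 1 symbol and 45101 in the table. All 10 genes had a probe set, 5 of them more than 1, and no filter on low values was applied, so every one was tested. RNA came from livers of 3 mutants, B6.Alb/cre,Pdss2loxP/loxP males of 176, 178 and 224 days, and of 3 controls, B6.Pdss2loxP/loxP males of 209, 213 and 140 days, with 1 array for each animal. Both groups carried the loxP-flanked alleles on the B6 background, and the mutants alone carried cre recombinase driven by the albumin promoter, which is active in hepatocytes and not in most other cells of the liver. Neither group received a treatment, and feed was withdrawn for 3 hours before death. Mutants and controls were caged apart, so that cage and genotype cannot be told apart.

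Growth hormone from the pituitary binds its receptor, Ghr, on hepatocytes, where the kinase Jak2 and the transcription factor Stat5b carry the signal to the genes for Igf1 and Igfals. Most circulating IGF1 is made in liver and travels bound to IGF binding proteins, with Igfals holding the complex with Igfbp3 in the blood. Insulin acts through its receptor, Insr, and the docking proteins Irs1 and Irs2 to Akt, which keeps FoxO factors out of the nucleus. FoxO factors raise transcription of Igfbp1 and Irs2 when insulin is low.

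Of the 23 probe sets, 1 fell in the mutants, that of Irs1, and none rose at an adjusted p under 0.05 from limma, where 1.99% of all 45037 probe sets other than the array's controls were called, 0.746% as lower and 1.25% as higher. Irs1 read 36.7% of its control level (95% interval 25.5% to 52.9%, n = 3 per group). Probe sets of Igf1 and Igfbp4 read down to 25.1% and 25.4% of control without passing the test, with adjusted p of 0.0793 and 0.0512, and Igfbp1 read 169% with an adjusted p of 0.133. In 8 of the 23 probe sets each mutant lay below each control, and in 2 each mutant lay above, where 10.7% and 21.2% of all probe sets did so. The 8 came from 4 genes, Igf1, Ghr, Igfbp4 and Irs1, and probe sets of 1 gene share its transcripts and are not independent. At an unadjusted p under 0.05, 8 of the 23 were lower and 1 was higher, against 9.54% and 15.7% of all probe sets. These shares cover dim probe sets too, while 22 of the 23 lay in the brighter part of the table, split at the median. In a limma fit of that part alone, 9 of the 22 and 7850 of all its 22520 probe sets had an unadjusted p under 0.05. The median difference over the 23 was -0.38 on the log2 scale, and over all probe sets it was 0.17, a value that quantile normalization moved to 0.04 and median centring to 0.01. With the brightest probe set alone for each gene, the median was -0.07 over the 10 genes and 0.17 over all genes. In a limma fit of these alone, 3 of the 10 had an unadjusted p under 0.05, where 5637 of all 18193 genes did so.

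**Figure D1:**
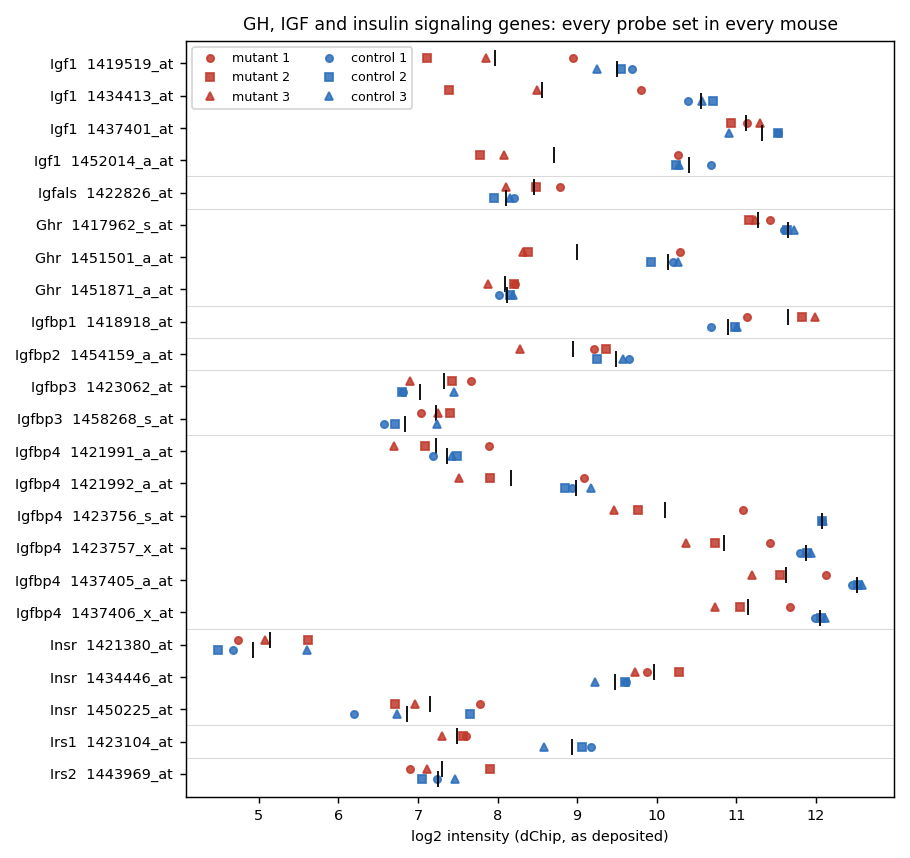
Log2 intensity (horizontal axis) of all 23 probe sets of the 10 genes (vertical axis) for the 3 mutants in red and the 3 controls in blue, with a black tick at each group's mean and a marker shape for each replicate number. For Irs1 the mutants sit at 7.30 to 7.60 and the controls at 8.58 to 9.17, while for Igf1 and Igfbp4 mutant 1 lies nearer the controls than mutants 2 and 3 on most probe sets.

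Differences are given as log2 values of mutants minus those of controls, in the direction the sample labels set. The labels could not be checked against the deleted gene, since the probe sets of Pdss2 differed by -0.54, 0.40 and 0.35 and no source used here places them against the exon that cre removes. Genes with symbols of respiratory complexes I, III, IV and V, 77 in all, had a median difference of -0.54 on these arrays, and 56 of them were lower. The study describes oxidative phosphorylation as upregulated in these mutants, from an enrichment analysis of a curated gene set. That is the opposite direction, although the measure and the genes counted here are not the same as the study's. The labels were followed throughout. Array medians ran from 6.12 to 6.24 in mutants and from 5.92 to 6.12 in controls, and the BioB spike, a bacterial transcript added in equal amount to each hybridization, read 10.47 to 11.03 in mutants and 8.73 to 9.09 in controls. Genes that every hepatocyte uses were bright, with Alb at 13.40 to 14.20 in mutants and 13.91 to 14.06 in controls, and the dimmest of 10 measured hepatocyte markers had a mean of 9.41. In RNA from whole liver, fewer cells of a type and less RNA for each cell cannot be told apart. Actb, a gene of the cytoskeleton, differed by 0.06 and 0.25 on its probe sets and passed on neither. An exact permutation test of 3 mice against 3 cannot give a p below 0.1.

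Irs1 encodes a docking protein that the insulin and IGF1 receptors phosphorylate, and its single probe set, 1423104_at, gave 7.60, 7.57 and 7.30 in mutants 1 to 3. The controls gave 9.17, 9.06 and 8.58. The groups were separated by a gap wider than either group's own range, and all 3 mutants lay close together. The difference was -1.45 (standard error 0.23, 95% interval -1.97 to -0.92) with an adjusted p of 0.0356 from limma. With any 1 of mutant 2, mutant 3, control 1, control 2 or control 3 left out, Irs1 no longer passed (adjusted p from 0.0685 to 0.174), although the difference stayed between -1.62 and -1.33, and with each of mutant 2, mutant 3, control 2 and control 3 left out no probe set of the whole table passed. Without control 1, 3 probe sets passed. Irs2, the other docking protein of liver, read 6.90, 7.91 and 7.11 in mutants and 7.24, 7.05 and 7.47 in controls. Its values overlapped, with a difference of 0.05 (95% interval -0.63 to 0.73), and the difference turned to -0.11 when each array was centred on its median.

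The promoters of the docking proteins and of Igfbp1 are shown because of FoxO factors, which insulin signaling restrains. These factors act at an insulin response sequence in that of Igfbp1. A promoter window of Igfals is shown because growth hormone acts on that gene through STAT5. Which of the Igfals windows STAT5 binds was not tested. Each promoter shown is the 250 bases before the start of the RefSeq transcript on build GRCm38.p6, written on the gene's own strand. RefSeq windows were found for 9 of the 10 genes. Capitals mark the letters CAAAACA, read on either strand, in the windows of Irs1 (chr1:82291440-82291689, minus strand), Irs2 (chr8:11008930-11009179, minus strand) and Igfbp1 (chr11:7197537-7197786, plus strand), and TTCNNNGAA in the first of the 3 windows of Igfals (chr17:24877594-24877843, plus strand).
Irs1: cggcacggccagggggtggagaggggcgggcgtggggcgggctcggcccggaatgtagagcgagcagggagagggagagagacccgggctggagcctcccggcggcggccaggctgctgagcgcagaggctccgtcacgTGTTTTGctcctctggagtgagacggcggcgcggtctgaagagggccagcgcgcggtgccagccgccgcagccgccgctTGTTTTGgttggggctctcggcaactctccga
Irs2: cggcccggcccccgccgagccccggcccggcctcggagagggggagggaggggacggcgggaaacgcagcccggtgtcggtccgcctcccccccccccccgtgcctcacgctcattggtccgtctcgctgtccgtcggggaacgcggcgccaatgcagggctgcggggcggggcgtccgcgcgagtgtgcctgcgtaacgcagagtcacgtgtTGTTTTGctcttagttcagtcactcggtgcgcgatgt
Igfbp1: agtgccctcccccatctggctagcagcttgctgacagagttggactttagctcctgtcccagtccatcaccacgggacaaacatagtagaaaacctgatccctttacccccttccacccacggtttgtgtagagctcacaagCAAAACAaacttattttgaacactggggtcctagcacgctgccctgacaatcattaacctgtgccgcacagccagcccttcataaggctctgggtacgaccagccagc
Igfals: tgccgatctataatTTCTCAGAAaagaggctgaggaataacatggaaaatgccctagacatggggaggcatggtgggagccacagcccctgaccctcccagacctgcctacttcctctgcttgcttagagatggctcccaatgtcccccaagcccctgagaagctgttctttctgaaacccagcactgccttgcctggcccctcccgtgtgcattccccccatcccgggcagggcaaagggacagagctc
The Igfbp1 match lies 108 to 102 bases before the start and the matches of Irs1 lie 111 to 105 and 32 to 26 bases before it. Irs2 has 1 match, 37 to 31 bases before its start. The Igfals match lies 236 to 228 bases before the start, a further window of Igfals, not printed, held TTCNNNGAA 58 to 50 bases and the FoxO letters 242 to 236 bases before its own start, and the remaining window held none. CAAAACA or its complement occurred in the 250 bases before the start in 5.56% of all 32851 RefSeq windows, TTCNNNGAA in 7.02% and the FoxO letters GTAAACA in 3.17%. No window of Igf1, Ghr, Igfbp2, Igfbp3 or Igfbp4 held any of these letters. The matches of these windows do not overlap each other, and a match describes the sequence only.

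Igf1, the growth factor that growth hormone raises in liver, is read by 4 probe sets that did not give 1 answer. On 1434413_at the mutants read 9.80, 7.38 and 8.49 and the controls 10.39, 10.71 and 10.57. Each mutant lay below each control, and mutant 1 lay nearest to them. The difference was -2.0 (standard error 0.54, 95% interval -3.24 to -0.75) with an adjusted p (limma) of 0.0793. On 1419519_at the mutants read 8.94, 7.11 and 7.85 and the controls 9.69, 9.55 and 9.25, a difference of -1.53 (adjusted p = 0.0863 from limma) with no overlap. On 1452014_a_at they read 10.26, 7.78 and 8.08 against 10.68, 10.25 and 10.28, so that mutant 1 lay inside the range of the controls and the difference of -1.69 had an adjusted p of 0.133 from limma. The brightest probe set, 1437401_at, read 11.13, 10.94 and 11.29 in mutants and 11.52, 11.52 and 10.91 in controls. Here the groups overlapped and the difference was -0.20 (95% interval -0.75 to 0.35), an interval that leaves out the differences of the other 3 probe sets. With the brightest probe set alone standing for the gene, Igf1 would read 87.1% of control instead of 25.1% to 34.7%.

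Ghr, the growth hormone receptor, showed the same disagreement on a smaller scale. Its brightest probe set, 1417962_s_at, read 11.43, 11.15 and 11.24 in mutants and 11.59, 11.64 and 11.72 in controls. No mutant reached the lowest control, but the difference was small, at -0.38 (95% interval -0.81 to 0.05, adjusted p = 0.247 from limma). On 1451501_a_at mutants 2 and 3 read 8.38 and 8.32, mutant 1 read 10.29 and the controls 10.21, 9.93 and 10.27. Mutant 1 was thus above all controls and the other mutants far below them, and the difference of -1.14 had an adjusted p of 0.206 from limma. The third, 1451871_a_at, differed by -0.03 (95% interval -0.48 to 0.42). Igfals, the liver protein that holds IGF1 in large complexes in the blood, read 8.79, 8.48 and 8.11 in mutants and 8.20, 7.96 and 8.15 in controls. Its groups overlapped and its difference was 0.36 (95% interval -0.18 to 0.89), opposite in sign to those of Igf1 and Ghr.

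Igfbp4, a binding protein that hepatocytes secrete and that restrains IGF action, is read by 6 probe sets, taken here as 3 pairs with consecutive numbers. On 1423756_s_at the mutants read 11.08, 9.76 and 9.47, and the controls 12.08, 12.08 and 12.08. The controls hardly differed, with an SD of 0.00451, and every mutant lay at least 1.00 below their mean. The difference was -1.98 (standard error 0.40, 95% interval -2.90 to -1.06) with an adjusted p of 0.0512 from limma. It passed in 5 of 12 alternatives: with quantile normalization (adjusted p = 0.0489 from limma), with bright probe sets alone (0.029), with trend and robust options (0.0457), with age as a covariate (0.0378) and without mutant 1 (0.00938). It did not pass with centred arrays (0.0604) or with the replicate number as a block (0.186). Nor did it pass with any 1 of the other mice left out (0.101 to 0.189). Its partner 1423757_x_at read 11.42, 10.73 and 10.36 in mutants and 11.80, 11.89 and 11.93 in controls, a difference of -1.03 (adjusted p = 0.0833 from limma). The brightest pair, 1437405_a_at and 1437406_x_at, differed by -0.90 each, with adjusted p of 0.0934 and 0.0941 from limma and no overlap. The dimmer pair, 1421992_a_at and 1421991_a_at, differed by -0.82 and -0.14 and overlapped with the controls, where mutant 1 stood above most of them. All 6 differences were thus below 0, from -1.98 to -0.14, the smallest of which turned to 0.12 without mutant 3. On these arrays the suffixes _s and _x mark probe sets with probes that may also bind other transcripts, as on 3 of the 6 for Igfbp4, 1423756_s_at among them.

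Mutant 1, nearest to the controls on most probe sets of these 3 genes, stood apart from the other mutants on a control of the array too. The 3' control probe set of Gapdh gave 11.92, 10.45 and 9.84 for mutants 1 to 3 against 11.96, 11.83 and 12.31 for the controls, so that it too was low in mutants 2 and 3 and not in mutant 1. The 5' control of Gapdh read 11.46 to 11.61 in mutants and 9.64 to 10.01 in controls, in the opposite direction. The hepatocyte markers as a list, of which 0 of 10 passed the test, had medians of 0.06, -0.22 and -0.18 in mutants 1 to 3 and 0.11 to 0.19 in controls, and the summed linear level of the list ran from 57660 to 75690 in mutants and from 74100 to 76160 in controls, with no marker at 0. The part of these measures in the differences of Igf1, Ghr and Igfbp4 was not tested. Without mutant 1, limma called 11 of the 23 probe sets, 10 lower and 1 higher, where 8.53% of all probe sets were called, 5.66% lower and 2.86% higher. They were Irs1, 3 of Igf1, 5 of Igfbp4 and 1451501_a_at of Ghr, which were lower, and Igfbp1, which was higher. Under the other settings the members called were 2 with quantile normalization (1.53% of all probe sets), 1 with centred arrays (0.666%), 3 of 22 with bright probe sets alone (13.5%), 1 of 10 with 1 probe set per gene (9.03%), 2 with trend and robust options (3.14%), 2 with age as a covariate (5.58%) and 0 without control 1 (0.00666%).

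**Figure D2:**
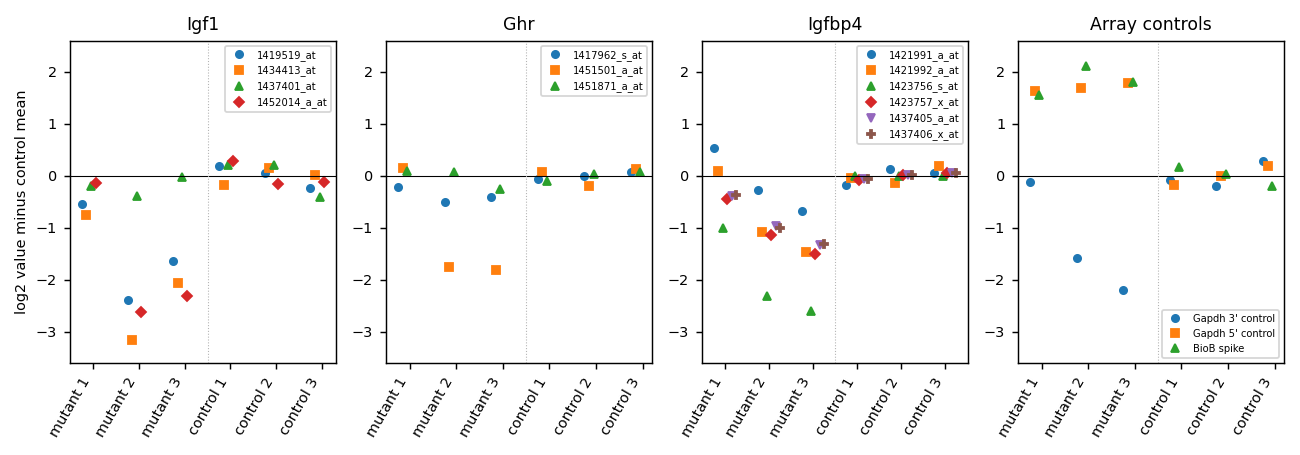
Log2 value minus the mean of the 3 controls (vertical axis) in each mouse (horizontal axis) for every probe set of Igf1, Ghr and Igfbp4, and for 3 control probe sets of the array. The lowest points are -3.17 for Igf1, in mutant 2, and -2.61 for Igfbp4, in mutant 3, mutant 1 sits nearer to 0 on most probe sets, and the Gapdh 3' control is also low in mutants 2 and 3.

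Igfbp1, a binding protein of liver that rises when insulin is low, read 11.13, 11.82 and 11.99 in mutants and 10.68, 10.99 and 11.00 in controls. Each mutant lay above each control, and mutant 1 was again the nearest to them. The difference was 0.76 (standard error 0.27, 95% interval 0.14 to 1.37) with an adjusted p of 0.133 from limma, and it passed in 1 of 13 alternatives, without mutant 1 (1.01, adjusted p = 0.0407). Igfbp2, which insulin also lowers in liver, read 9.21, 9.36 and 8.29 in mutants and 9.65, 9.25 and 9.57 in controls. The low value of mutant 3 carried most of its difference of -0.54 (95% interval -1.26 to 0.18), which was -0.21 without that mouse. Igfbp1 and Igfbp2 thus differed in opposite directions, and neither passed the test.

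Igfbp3, the main carrier of IGF1 in blood, comes largely from cells of the liver other than hepatocytes. Its probe set 1458268_s_at read 7.03, 7.40 and 7.26 in mutants and 6.57, 6.71 and 7.24 in controls, and 1423062_at read 7.67, 7.43 and 6.91 against 6.82, 6.80 and 7.46. Both overlapped between the groups, and their differences of 0.39 (95% interval -0.16 to 0.95) and 0.31 (95% interval -0.35 to 0.97) did not pass. Of 16 markers of sinusoidal endothelium 2 rose and none fell, where 1.73% of all genes, each by its brightest probe set, were called higher. They were Stab2 (1.82, adjusted p = 0.0375 from limma) and Stab1 (1.39, adjusted p = 0.0499), which encode scavenger receptors of these cells, and both calls were lost without mutant 2, mutant 3, control 2 or control 3. Of the 16 markers 9 overlapped between the groups, and 4 had differences below 0, from -0.50 for Fcgr2b to -0.12 for Flt4. Their summed linear level was 6695 to 11000 in mutants and 3516 to 5688 in controls, with no marker at 0. Of 13 Kupffer cell markers none passed, with sums of 2969 to 4671 in mutants and 1512 to 2813 in controls, of 14 stellate cell markers none (4294 to 5794 and 4669 to 5988) and of 6 bile duct markers none (416 to 547 and 291 to 438), with none at 0. The part of these cells in the Igfbp3 values was not tested.

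Insr, the insulin receptor, had its brightest probe set, 1434446_at, at 9.88, 10.28 and 9.72 in mutants and at 9.61, 9.60 and 9.22 in controls. The mutants lay above the controls, with a difference of 0.48 (95% interval -0.05 to 1.01, adjusted p = 0.239 from limma). The other probe sets overlapped and differed by 0.29 and 0.22. The dimmest, 1421380_at, had a mean of 4.92 in controls, below the lowest lower quartile of any array (5.03), and its signal over background is unknown. All 3 differences of Insr were above 0, although those of both dimmer probe sets turned slightly negative with a mouse left out, while that of Irs1, which the receptor phosphorylates, was below 0.

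**Figure D3:**
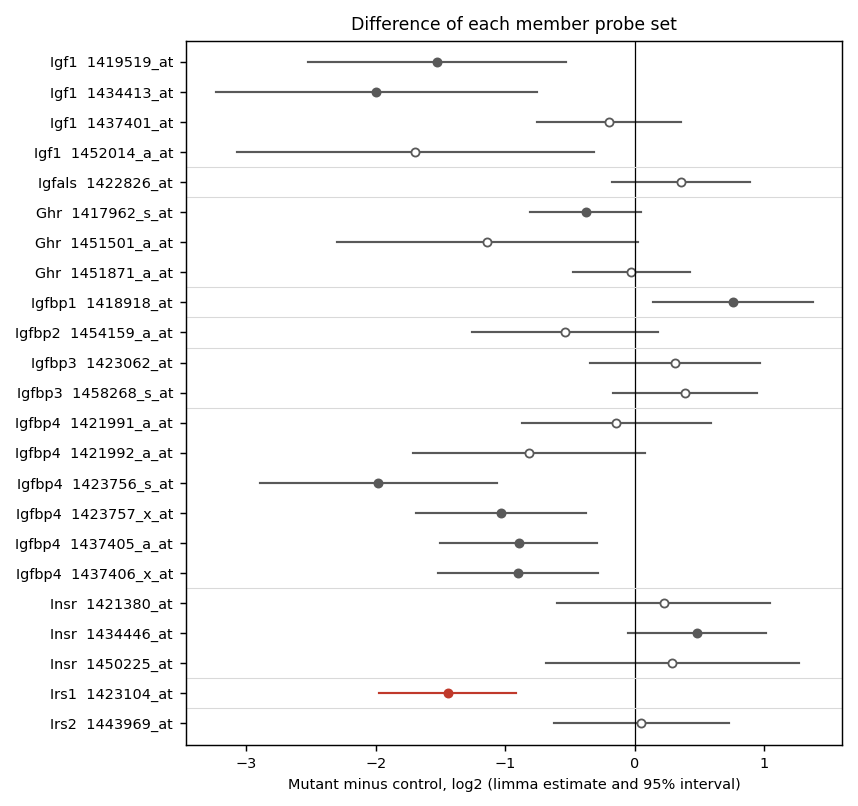
Mutant minus control on the log2 scale (horizontal axis) for each of the 23 probe sets (vertical axis), as the limma estimate with its 95% interval. Irs1, in red, is the only one with an adjusted p under 0.05, at -1.45, and filled points mark the 10 probe sets whose groups did not overlap.

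Lists of other genes of these pathways were counted with 1 probe set for each gene, the one of highest mean, for which 2.78% of all 18193 genes were called, 1.04% as lower and 1.73% as higher. Of 75 measured genes of growth hormone signaling, the IGF system and insulin signaling, 1 fell and none rose, with a median difference of 0.12 against 0.17 over all genes. The gene that fell was Eif4ebp2, a repressor of translation that mTOR phosphorylates downstream of insulin. It read 9.25, 8.92 and 9.11 in mutants and 10.24, 10.01 and 10.02 in controls, with a difference of -1.0 (standard error 0.19) and an adjusted p of 0.0499 from limma. Another of its probe sets fell by 1.83 on the log2 scale, and the other 3 read 0.54, 0.35 and 0.33. The call rested at the threshold, and none of the 75 genes was called with each array centred on its median, while quantile normalization called 1, as higher. The call of Eif4ebp2 was also lost, with those of all other genes, without mutant 2, mutant 3, control 2 or control 3, and no gene of the signaling lists was called without control 1.

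None of the 15 measured genes of growth hormone signaling and none of the 14 of the IGF system was called. At an unadjusted p under 0.05, 2 of the former were lower and 1 was higher, and none of the latter was either, where 12.2% of all genes were lower and 17.3% higher at that p. The negative regulators Socs2 and Cish, which Stat5b induces after growth hormone, differed by 0.31 and 0.16 (adjusted p of 0.452 and 0.682 from limma), and Stat5b itself by 0.10, although the other probe sets of Socs2 read from -1.18 to 0.19 and that of Stat5b read 0.93 (adjusted p = 0.0913). These genes, and those named in the rest of this paragraph, were picked after their values were seen. Jak2, the kinase on the growth hormone receptor, read 7.18 in mutants and 8.09 in controls, a difference of -0.91 with an adjusted p of 0.0752, and 0.03 on its other probe set. In the IGF system Igf2r, which clears IGF2, and Igf1r, the IGF1 receptor, differed by 0.36 and 0.30 and did not pass, and the other probe set of Igf2r read -1.24 (adjusted p = 0.0609). Among 46 genes of insulin signaling, Eif4ebp2 was the one called. Gsk3b, a kinase that insulin inhibits, differed by 1.46 (adjusted p = 0.0543 from limma) on its brightest probe set and by between -0.70 and 0.39 on its other 5, and Foxo3, a FoxO factor, by -1.14 (adjusted p = 0.0606 from limma), while its other probe sets read -0.30 and 0.34. Akt1 and Akt2 differed by -0.77 and 0.61, with adjusted p of 0.115 and 0.457, and the other probe sets of Akt2 by -0.84 and -0.19.

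No gene was called among 53 measured targets of insulin or growth hormone in liver, and at an unadjusted p under 0.05 there were 6 lower and 9 higher, 15 in all, where 12.2%, 17.3% and 29.5% of all genes met it. The 12 genes that insulin raises had a median difference of 0.32 and the 13 that it lowers one of -0.07, against 0.17 over all genes. As deviations from each gene's mean, the medians of the 12 were 0.64, -0.41 and 0.07 in mutants 1 to 3. In controls 1 to 3 they were -0.32, -0.17 and 0.23. Those of the 13 were -0.02, -0.20 and -0.13 in mutants and 0.15, 0.14 and 0.04 in controls. The genes that insulin lowers include G6pc and Pck1, enzymes of glucose output, both chosen with their values known. G6pc and Pck1 differed by 0.56 and -0.34 (adjusted p of 0.247 and 0.509 from limma). Pdk4, which shuts down pyruvate oxidation in fasting, read 7.20, 5.73 and 6.76 in mutants and 8.36, 7.82 and 8.41 in controls, a difference of -1.63 with an adjusted p of 0.0639 from limma, and was likewise chosen. It had the smallest p of the 13 genes that insulin lowers, of which 3 were lower and 2 higher by the unadjusted threshold. Genes that pulses of growth hormone keep higher in males had a median of 0.02 over 14 measured, with 2 lower and 3 higher by the unadjusted threshold, and 14 female-biased genes one of 0.18, with 1 lower and 4 higher.

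**Figure D4:**
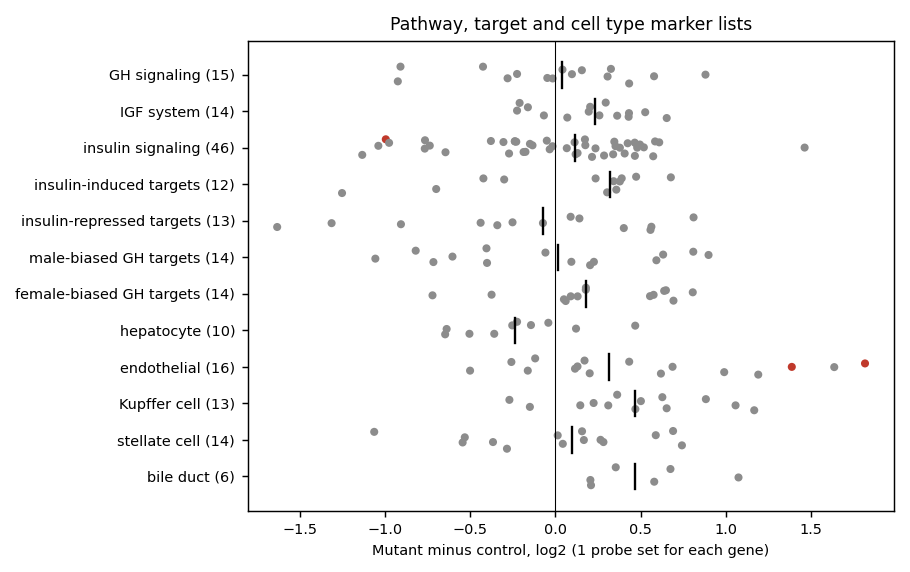
Mutant minus control on the log2 scale (horizontal axis) for each measured gene of the lists (vertical axis, number of genes in parentheses), with a black line at each list's median and genes with an adjusted p under 0.05 in red. Eif4ebp2 at -1.0 and the endothelial genes Stab1 and Stab2 at 1.39 and 1.82 are the 3 in red.

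The genes whose values over the 6 arrays ran closest to those of Irs1 were Mxd3, a partner of Max (Pearson r = 0.997), Jund, a subunit of the AP-1 factor (0.995), and Mrpl19, of the mitochondrial ribosome (0.993). They were the 3 highest of all genes, over 6 arrays that also share the division into 2 groups, so the values are a description. Mxd3 read 7.68 to 7.83 in mutants and 8.29 to 8.63 in controls, Jund 10.90 to 10.97 and 11.10 to 11.20, and Mrpl19 6.13 to 6.37 and 6.90 to 7.20. None of the 3 passed the test, with adjusted p of 0.077, 0.451 and 0.0616 from limma.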

How the data were processed

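Liver RNA of 3 mutants and 3 controls was hybridized to 1 Affymetrix mouse array each, grouped by the sample labels. Probe intensities were normalized and summarized by the authors in dChip (perfect-match model), and the deposited log2 values, from 0 to 14.63 with 40 at exactly 0, were used unscaled. Although the methods mention a C. elegans array, these probe sets are of the mouse design. No source used here gives detection calls, the dChip version or its baseline array, so signal over background is unknown.

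Symbols came from the platform annotation. All 45037 probe sets other than 64 array controls were compared by lmFit followed by eBayes (limma 3.58.1, R 4.3.3), with Benjamini-Hochberg adjustment over all of them and a threshold of 0.05. Named were every probe set of the 10 genes; the genes called in each signaling or target list, up to 4 of smallest p and any of a list with 5 or fewer; Pdss2, Actb and Gapdh; and the 3 genes whose brightest probe set had the highest Pearson r with the member probe set of smallest p. Alb, BioB, the endothelial markers and the uncalled genes of the lists lie outside this rule and were chosen with their values known. In simulated data of this size the comparison called 3 of 100 probe sets changed by 1 on the log2 scale, 56 of 100 changed by 2 and 1 of 44837 unchanged ones. In the measured data 11356 of 45037 probe sets had an unadjusted p under 0.05 in limma. The adjustment depends on how many probe sets change, so the simulated rates need not hold for these data. The members and lists were chosen with earlier results of these data known. The number of arrays limits the precision. Each limma p-value sets a difference against the spread between these mice, which eBayes moderates by that of all probe sets. Promoters are those of RefSeq, and figures were drawn with matplotlib 3.10.9.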

Additional observations from a re-analysis of the deposited data

How the results depend on the processing

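The Irs1 difference kept its sign in all 13 alternatives (-1.62 to -1.33) and its call in 7, with adjusted p from 0.018 to 0.184 over them. Calls among the 23 probe sets of the 10 genes, 1 as reported, numbered 2 with quantile normalization, 3 with bright probe sets alone, 2 with trend and robust options and 2 with age as a covariate, and from 0 to 11 with a mouse left out. Over all probe sets, 897 as reported, they numbered 300 with each array centred on its median (150 lower and 150 higher, against 336 and 561), 3050 with bright probe sets alone, 1643 with 1 probe set per gene, 1413 with trend and robust options and 2515 with age, and from 0 to 3840 with a mouse left out. The 3840 came without mutant 1, and the 0 without mutant 2, mutant 3, control 2 or control 3, when 8983, 8663, 7526 and 11749 had an unadjusted p under 0.05; 3 came without control 1. Genes of the signaling lists, 1 as reported, numbered 0 with centred arrays, 5 with bright probe sets, 6 with 1 probe set per gene, 0 with trend and robust options, 4 with age, and from 0 to 6 with a mouse left out. Genes of the target lists, 0 as reported with 15 at an unadjusted p under 0.05, numbered 1 with bright probe sets, 1 with 1 probe set per gene and from 0 to 6 with a mouse left out, the 6 without mutant 1. The fits with bright probe sets and with 1 probe set per gene held 22520 and 18193 tests, against 45037 as reported. Of these, 7850, 5637 and 11356 had an unadjusted p under 0.05 in limma. The cause of the changed counts was not tested for any setting.

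With the replicate number as a block no probe set passed in limma (0 of all, 0 of the members, where 10 had an unadjusted p under 0.05, and 0 of the signaling lists), and Irs1 had an adjusted p of 0.184. The numbers do not pair the mice: deviations from the group means correlated at 0.06, -0.50 and -0.56 between mice of the same number, and the only tie the labels give, control 1 as concurrent control of mutant 3 (correlation 0.45), is a single pair, so no fit used it.

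Small differences changed sign: Ghr 1451871_a_at was 0.08 with quantile normalization (0.0800) and from -0.09 to 0.08 with a mouse left out (-0.0863 to 0.0832); Irs2 was -0.11 with centred arrays, -0.05 without control 2 and from -0.25 to 0.25 with a mouse left out; Insr 1450225_at was -0.02 without mutant 1 and from -0.0415 to 0.69 with a mouse left out; Insr 1421380_at ran from -0.0137 (without mutant 2) to 0.57; and Igfbp4 1421991_a_at ran from -0.48 to 0.12, the latter without mutant 3.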
